A study of Rattus norvegicus with 2 samples.

Results

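Circular RNAs (circRNAs) arise by back-splicing, in which the end of an exon is spliced to the start of the same or an earlier exon, and they are counted by the reads that cross that junction. The junctions described here are those of 4 host genes for ion transport proteins: the sodium-calcium exchanger SLC8A1, the channel TRPM7, the calcium channel subunit CACNA2D1 and the potassium channel KCNQ5. They were taken as every junction in the deposited table with 1 of these symbols as its only host gene, which gave 32 of 17260 junctions and 4 of 4991 host genes. TRPM7 had 21 of them, CACNA2D1 6, SLC8A1 3 and KCNQ5 2.

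The libraries were labelled bone_cancer_pain and control. In the bone cancer pain group of 3 SD rats, the tibial marrow cavity was injected with living Walker256 cells, which come from a mammary carcinoma of the rat and had been grown as ascites. In the control group of 3, the same cells were boiled for 20 minutes before the same surgery. Both groups were killed 21 days after surgery, and both RNA samples were depleted of ribosomal RNA and digested with RNase R, which degrades linear RNA. The labels give the material both as cancer cells and as spinal cord cells, and they do not say whether the RNA of the 3 animals was pooled. There was 1 library per group, so no difference below has a replicate check, and each ratio compares 2 libraries and not the conditions.

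The labels name the rat, but the identifiers and positions in the table are human in style. TRPM7 was on chromosome 15 in the table, where rat Trpm7 is on chromosome 3. SLC8A1 was on 2 (rat 6), CACNA2D1 on 7 (rat 4) and KCNQ5 on 6 (rat 9), with the rat chromosomes from RefSeq's GRCr8 assembly. Positions below are those of the table, whose build is not named in it, and the groups are the libraries so labelled. Markers of the labelled tissue were nearly absent as hosts: none of 8 neuronal, 5 astrocyte or 5 microglial markers had a junction as its only host gene, and of 5 oligodendrocyte markers MBP had 1, with 3 reads in bone cancer pain and 2 in control. Of 6 carcinoma and epithelial markers ERBB2 had reads (35 in bone cancer pain and 36 in control), and of 6 fibroblast and vessel markers COL3A1 (59 and 24). Of 6 muscle markers none had a junction. The neuronal SYT1 was named with other genes on 1 junction, which had 2 reads in bone cancer pain and was not listed in control. The part of cell makeup in the results was not tested, and in RNA from mixed cells fewer cells of a type and less RNA per cell cannot be told apart.

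These genes share a role in moving cations across membranes. SLC8A1 (NCX1) exchanges sodium for calcium across the plasma membrane and is the main route of calcium exit in heart muscle, where the gene is also known for an abundant circle of a single large exon. TRPM7 joins a cation channel, passing magnesium, calcium and zinc, to a protein kinase in the same chain. CACNA2D1 encodes the auxiliary subunit of voltage-gated calcium channels that binds gabapentin and pregabalin, drugs used against neuropathic pain. KCNQ5 is a subunit of the channels of the M current, a slow potassium current that limits repeated firing of neurons. Circular junction reads measure neither the linear mRNA nor the protein of a host gene.

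The bone cancer pain library held 151685 circular junction reads and the control library 159941. The values, headed TPM in the table, are scaled to the total of such reads in each library, so that 1 read was worth 6.59 TPM in bone cancer pain and 6.25 TPM in control, and the lowest listed value was 2 reads. A ratio is the share of reads in bone cancer pain over that in control, with an exact 95% interval that covers counting error only. A junction or host gene is called higher or lower by size alone, when adding 0.5 reads to each library leaves it at a ratio of at least 2 or at most 0.5 and both libraries together hold 10 or more reads.

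SLC8A1 had the most reads of the 4 genes in bone cancer pain. Its junctions summed to 206 reads in bone cancer pain, against 67 in control (1358 and 419 TPM), a ratio of 3.24 (2.45 to 4.34). TRPM7 had 99 reads in bone cancer pain and 99 in control (653 and 619 TPM), a ratio of 1.05 (0.79 to 1.41). CACNA2D1 had 20 in bone cancer pain and 17 in control (131.9 and 106.3 TPM), a ratio of 1.24 (0.62 to 2.52). KCNQ5 had 9 in bone cancer pain and 2 in control (59.3 and 12.5 TPM), a ratio of 4.74 with an interval of 0.98 to 45.1, so the direction of KCNQ5 was not resolved at this depth. With 2 reads added to each library its ratio was 2.90. The interval of SLC8A1 lay above the whole interval of TRPM7, and overlapped those of CACNA2D1 and KCNQ5. By size, SLC8A1 and KCNQ5 were called higher, and TRPM7 and CACNA2D1 were between. Of all 3037 host genes with 10 or more reads, 13.3% were called higher and 14.2% lower.

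**Figure D1:**
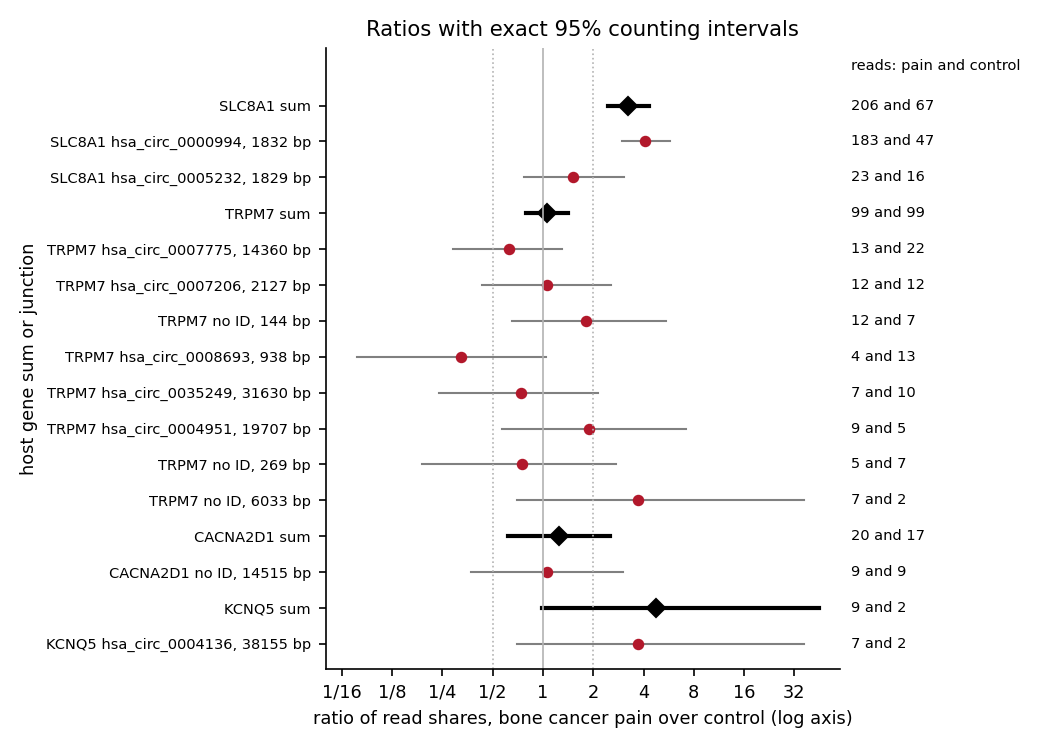
Ratio of read shares, bone cancer pain over control, on a log axis, for each host gene sum (diamonds) and for its junctions listed in both libraries with at least 9 reads over both (points). Lines are exact 95% counting intervals, dotted lines mark ratios of 2 and 0.5, and the reads at the right are bone cancer pain and then control. The SLC8A1 sum and its most abundant junction have intervals wholly above 2.

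Nearly all SLC8A1 reads were on a pair of junctions with the same left end on chromosome 2, at 40655613, and right ends 3 bp apart. The longer form (hsa_circ_0000994, 40655613 to 40657444, 1832 bp) had 183 reads in bone cancer pain and 47 in control, or 1206 and 293.9 TPM. Its ratio was 4.11 (2.97 to 5.78), and it was the only member junction called higher. By reads it ranked 140 among all junctions. Of 452 junctions with 100 or more reads, a minimum chosen after the values had been seen, 28 were at least 2-fold higher and 25 at least 2-fold lower, and this junction had the rank 4 from the highest ratio.

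The shorter form (hsa_circ_0005232, 40655613 to 40657441, 1829 bp) had 23 reads in bone cancer pain and 16 in control, or 151.6 and 100.04 TPM. Its ratio was 1.52 (0.77 to 3.07), an interval that holds 1. Within the pair, the longer form took 88.8% of the reads in bone cancer pain (exact 95% binomial interval 83.7 to 92.8), against 74.6% in control (62.1 to 84.7). These intervals overlap by a small margin. Whether 2 ends so close are separate splice sites or 1 site placed in different ways by the mapping was not tested. Taken as 1 circle, the pair had 206 reads in bone cancer pain and 63 in control (3.45, 2.59 to 4.65).

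The remaining SLC8A1 junction (40387905 to 40404995, 17091 bp, with no identifier in circBase, a catalogue of published circRNAs) had 4 reads in control and was not listed in bone cancer pain. Without the longer form, SLC8A1 had a ratio of 1.21 (0.64 to 2.33), so the SLC8A1 ratio rested on that junction.

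**Figure D2:**
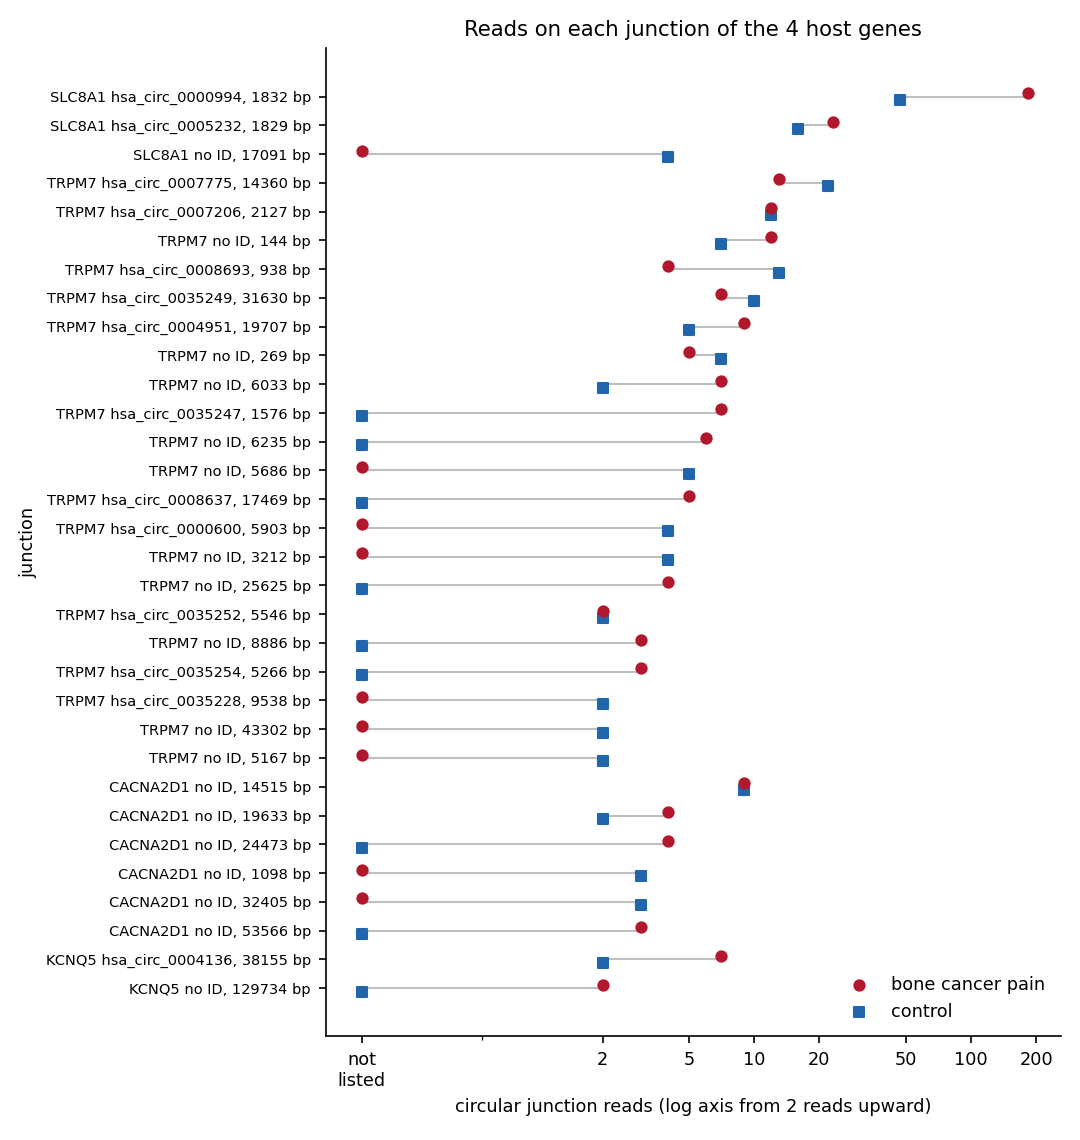
Circular junction reads of all 32 junctions in the bone cancer pain library (circles) and the control library (squares), on an axis that is logarithmic from 2 reads upward. Labels give the circBase identifier and the span. The longer SLC8A1 form is the highest point of both libraries, at 183 and 47 reads, and 18 junctions are listed in 1 library only.

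TRPM7 was laid out differently, with many junctions of few reads each. Its 21 junctions had 9.43 reads each on average over both libraries, against 91 for SLC8A1. Of these, 15 were listed in bone cancer pain and 15 in control, with 9 in both, 6 in bone cancer pain only and 6 in control only. The most abundant took 13.1% of TRPM7 reads in bone cancer pain (7.18 to 21.4) and 22.2% in control (14.5 to 31.7).

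That junction (hsa_circ_0007775, chromosome 15, 50940884 to 50955243) had 13 reads in bone cancer pain and 22 in control, or 85.7 and 137.6 TPM (ratio 0.62, 0.29 to 1.29). The next (hsa_circ_0007206, 50929619 to 50931745) had 12 reads in each library, or 79.1 TPM in bone cancer pain and 75.03 TPM in control (1.05, 0.43 to 2.57). A short junction with no identifier (50901778 to 50901921, 144 bp) had 12 reads in bone cancer pain and 7 in control, or 79.1 and 43.8 TPM (1.81, 0.66 to 5.42). None of these intervals leaves out 1.

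The junction hsa_circ_0008693 (50867049 to 50867986, 938 bp) had 4 reads in bone cancer pain and 13 in control, or 26.4 and 81.3 TPM. It was the only member junction called lower, at a ratio of 0.32 with an interval of 0.077 to 1.05 that still holds 1. Among the other TRPM7 junctions with 10 or more reads, none was called. They were hsa_circ_0035249 (50923614 to 50955243) with 7 reads in bone cancer pain and 10 in control (46.1 and 62.5 TPM; 0.74, 0.24 to 2.15), and hsa_circ_0004951 (50935537 to 50955243) with 9 and 5 (59.3 and 31.3 TPM; 1.90, 0.57 to 7.21). The last, with no identifier (50862084 to 50862352, 269 bp), had 5 and 7 (33.0 and 43.8 TPM; 0.75, 0.19 to 2.76). Listed in both with fewer reads were hsa_circ_0035252 (50935537 to 50941082), with 2 in each library, and 50862084 to 50868116, with 7 in bone cancer pain and 2 in control (3.69, 0.70 to 36.4).

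The 6 TRPM7 junctions listed in bone cancer pain only held 3 to 7 reads each and 28 in all, and the 6 listed in control only held 2 to 5 each and 19 in all. The largest of the first kind was hsa_circ_0035247 (50923614 to 50925189), at 46.1 TPM. The largest of the second had no identifier (50862301 to 50867986) and stood at 31.3 TPM. No fold is given for any of them, since a junction that is not listed may still have had 1 read. Summed over the junctions listed in both, TRPM7 had 71 reads in bone cancer pain and 80 in control.

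TRPM7 circles reused the same ends. The right end at 50955243 was joined to 6 different left ends, with spans from 5266 to 43302 bp, and these junctions summed to 36 reads in bone cancer pain and 39 in control (0.97, 0.60 to 1.57). The left end at 50862084 was joined to 3 right ends, with 12 reads in bone cancer pain and 13 in control (0.97, 0.41 to 2.31). The left end at 50923614 was also joined to 3, with 19 and 10 (2.003, 0.89 to 4.82). The right end at 50867986 was joined to 3 left ends and had 4 reads in bone cancer pain, against 22 in control (0.19, 0.048 to 0.56). This was the only shared TRPM7 end with reads in both libraries whose interval leaves out 1, among 9 such ends, and it was singled out after its values had been seen. A junction ending 130 bp to its right, at 50868116, had 7 reads in bone cancer pain and 2 in control.

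**Figure D3:**
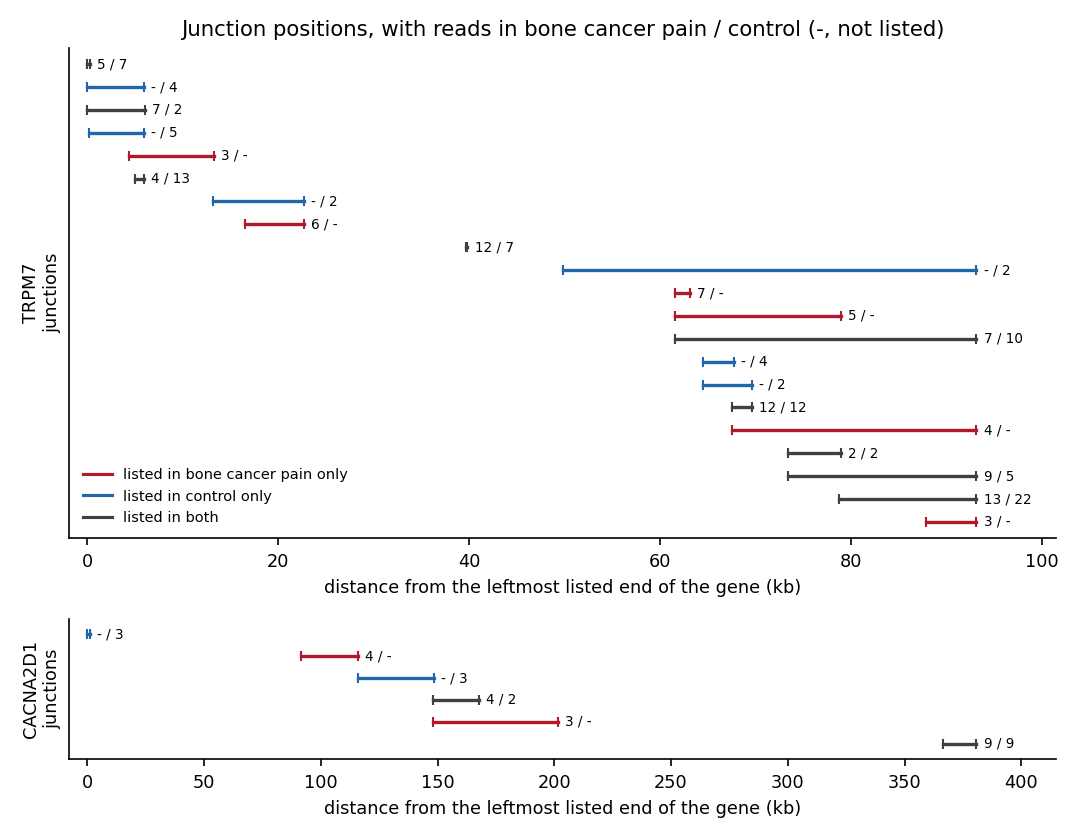
Junctions of TRPM7 (top) and CACNA2D1 (bottom) drawn to scale from their left to their right end, as distance in kb from the leftmost listed end of each gene. Colours show the libraries in which a junction is listed, and the numbers at the right of each bar are reads in bone cancer pain and then control. The TRPM7 junctions fall in a group on the left and a larger one on the right, with the 144 bp junction between them; in the right group 6 meet at 1 right end. Of the CACNA2D1 junctions only 2 are listed in both libraries.

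CACNA2D1 had 6 junctions, none with a circBase identifier, and 4 were listed in each library. The most abundant (chromosome 7, 81964451 to 81978965) had 9 reads in bone cancer pain and 9 in control, or 59.3 and 56.3 TPM (1.05, 0.37 to 3.00). It took 45% of the CACNA2D1 reads in bone cancer pain (23.1 to 68.5) and 52.9% in control (27.8 to 77.0). Another (81746360 to 81765992) had 4 and 2 (26.4 and 12.5 TPM; 2.11, 0.30 to 23.3). The other four were listed in 1 library each. Listed in bone cancer pain only were 81689744 to 81714216, at 26.4 TPM, and 81746360 to 81799925, at 19.8 TPM. Listed in control only were 81598203 to 81599300 and 81714085 to 81746489, at 18.8 TPM each. Each of these held 3 or 4 reads, close to the lowest listed value.

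KCNQ5 had a junction on chromosome 6 with the identifier hsa_circ_0004136 (73713631 to 73751785, 38155 bp), with 7 reads in bone cancer pain and 2 in control, or 46.1 and 12.5 TPM (3.69, 0.70 to 36.4). From the same left end, a junction of 129734 bp (73713631 to 73843364) had 2 reads in bone cancer pain and was not listed in control. It had the longest span of the 32.

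Further junctions in KCNQ5 and CACNA2D1 carried the names of small RNAs as well, such as snoU13 and Y_RNA, and are not counted above. A junction in KCNQ5 of 973 bp (chromosome 6, 73357660 to 73358632) had 33 reads in bone cancer pain and 21 in control, or 217.6 and 131.3 TPM (1.66, 0.93 to 3.01), more than all the other KCNQ5 junctions together. The 973 bp junction also carried the name KCNQ5-IT1, and which of its named genes the reads belong to was not tested. The junction hsa_circ_0002930 (73590600 to 73606865) had 6 reads in bone cancer pain and was not listed in control. With both, KCNQ5 had 48 reads in bone cancer pain and 23 in control, and its ratio was 2.20 (1.31 to 3.79). Most of these reads were on the 973 bp junction, so the sum may hold reads of KCNQ5-IT1. In CACNA2D1, the left end of its most abundant junction, 81964451, was joined to further right ends at 82051086 and 82039927, each with 2 reads in control and not listed in bone cancer pain. With these, CACNA2D1 had 20 reads in bone cancer pain and 21 in control (1.00, 0.52 to 1.95).

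Of the 32 junctions, 14 were listed in both libraries (43.8%, 26.4 to 62.3), beside 41.9% of all junctions (41.2 to 42.7), and 9 were listed in each library alone. A circBase identifier was given for 14 (43.8%, 26.4 to 62.3), beside 54.0% of all (53.2 to 54.7). Their median span was 7560.5 bp and that of all junctions 5765 bp. An exact left or right end was shared with another junction of the table by 26 of the 32 (81.2%, 63.6 to 92.8), beside 61.8% of all (61.1 to 62.5). In TRPM7 it was 19 of 21, in CACNA2D1 3 of 6, in SLC8A1 2 of 3 and in KCNQ5 2 of 2. Most of these were thus of 1 gene. The interval takes junctions as independent, which those sharing an end are not. Of the 32, 10 had 10 or more reads. Among these, 1 was called higher and 1 lower, where 17.3% and 17.0% of all 5415 junctions with 10 or more reads were called, so neither count exceeds the background.

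The other genes of ion transport were taken from a list. Of its 269 genes for ion channels, calcium pumps and exchangers, which include the 4 members, 39 had a junction as its only host gene, and 23 had 10 or more reads. Of these, 4 were called higher, 2 lower and 17 were between, or 17.4% higher and 8.70% lower, beside 13.3% higher and 14.2% lower of all host genes. The median log2 ratio was -0.0026 for the list and -0.03 for all host genes. Without the 4 members, 2 of 19 were higher and 2 lower, with a median log2 ratio of -0.08.

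Among TRP channels, 5 of 27 had a junction. PKD2, a channel of the primary cilium, had 74 reads in bone cancer pain and 70 in control (1.11, 0.79 to 1.57), and TRPC1 had 16 and 32 (0.53, 0.27 to 0.99). Of 97 potassium channel genes, KCNQ5 alone was the only host gene of a junction, while KCNMA1 (3 reads in bone cancer pain, not listed in control) and KCNT2 (not listed in bone cancer pain, 4 reads in control) each shared a junction with other names. Of 33 voltage-gated calcium channel subunits and related channels, 4 had a junction. NALCN, a sodium leak channel, had 13 reads in bone cancer pain and 16 in control (0.86, 0.38 to 1.90). Of 22 sodium channel genes 2 had a junction, with 2 reads in each library over both genes, and of 20 P2X and mechanically gated channel genes 3 had one, with 6 reads in bone cancer pain and 9 in control over all.

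Of 18 calcium exchangers and pumps, 7 had a junction. The calcium pump of the endoplasmic reticulum ATP2A2 had 35 reads in bone cancer pain and 37 in control (1.00, 0.61 to 1.63). The Golgi calcium pump ATP2C1 had 18 and 37 (0.51, 0.27 to 0.92), and the plasma membrane pump ATP2B4 had 12 and 13 (0.97, 0.41 to 2.31). Of the 5 with 10 or more reads, SLC8A1 alone was called higher and none was called lower. Of all host genes with 10 or more reads, 13.3% were called higher and 14.2% lower.

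Calcium stores and mitochondrial uptake had the largest share of hosts in the list, 9 of 17. MCU, the pore of the mitochondrial calcium uniporter, had 97 reads in bone cancer pain and 85 in control (1.20, 0.89 to 1.63). MICU3, a regulator of the uniporter, had 34 and 60 (0.60, 0.38 to 0.92). ITPR2, a calcium release channel of the endoplasmic reticulum, had 43 and 48 (0.94, 0.61 to 1.46).

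Among chloride channels and anoctamins, 8 of 35 had a junction. The lipid scramblase and ion channel ANO6 had 24 reads in bone cancer pain and 11 in control (2.30, 1.08 to 5.20) and was called higher. ANO10 had 18 and 10 (1.90, 0.83 to 4.60). CLIC4, a chloride intracellular channel protein, had 15 reads in control, was not listed in bone cancer pain and was called lower. The other gene of the list called lower, TMCO1 of the calcium store group, had 2 reads in bone cancer pain and 15 in control. Both were named after their values had been seen.

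**Figure D4:**
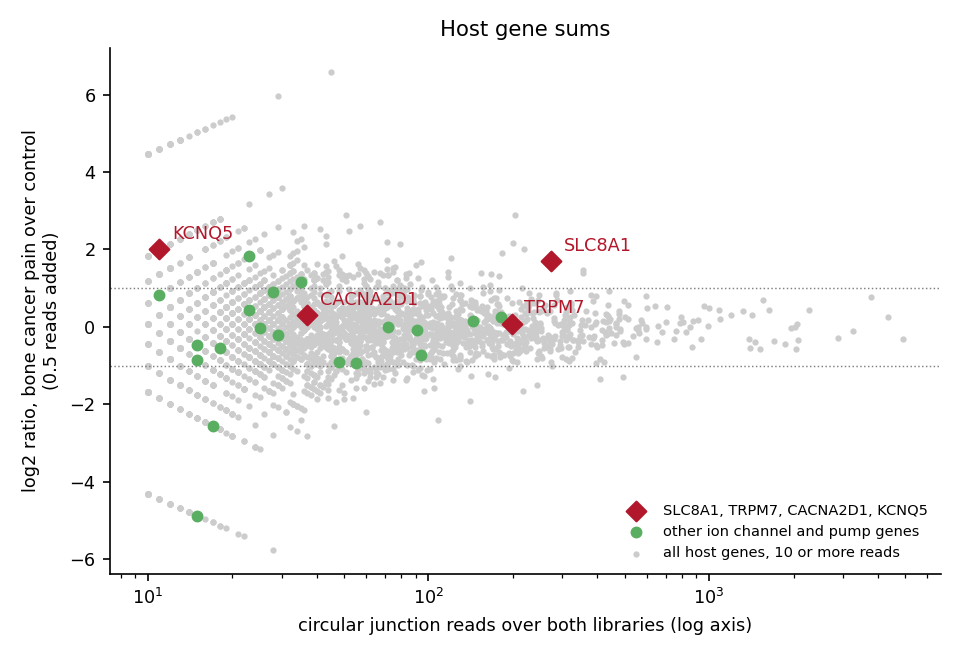
Log2 ratio of bone cancer pain over control (0.5 reads added) against reads over both libraries (log axis) for the 3037 host genes with 10 or more reads. Diamonds are the 4 genes described, green points the other 19 genes of the ion transport list, and dotted lines a 2-fold ratio either way. SLC8A1 lies above the mass of host genes with like reads, while TRPM7 lies within it.

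Among 669 host genes with 100 or more reads, again a minimum chosen after the values had been seen, 21 were at least 2-fold higher and 16 at least 2-fold lower. SLC8A1 had the rank 6 from the highest ratio among them and TRPM7 the rank 264. Over the 3037 host genes with 10 or more reads, SLC8A1 ranked 164, KCNQ5 119, CACNA2D1 1057 and TRPM7 1320. Likeness of pattern was measured as the distance between log2 TPM values (1 added) over both libraries, among host genes with 20 or more reads. TRPM7 was closest to LSM14A, with 98 reads in each library, to YY1AP1, with 100 in bone cancer pain and 101 in control, and to GIGYF2, with 97 and 93. CACNA2D1 had the same reads as 4 host genes, among them DPP8, PSMC2 and TMTC3, at a distance of 0. The closest to SLC8A1 were farther off, at distances of 0.56 for FAT3 (141 and 74), 0.58 for CDKN2B-AS1 (146 and 83) and 0.61 for THSD1 (155 and 92). KCNQ5 had too few reads to be compared.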

How the data were processed

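Circular junction reads were measured in 1 library of each of 2 groups, bone_cancer_pain and control. The submitters' processing notes name CASAVA 1.8, BWA and the build rn6 without their roles, and the circRNA caller is not given in the sources used here. Per the file headers the values are TPM, but here they were read as RPM of circular junction reads, as deposited by the authors, because both columns had nearly the same sum and the values held no length term. A value of 0.001 was taken as not listed. All other values were multiples of the worth of 1 read in their library, departing from whole reads by at most 0.00192 reads in bone cancer pain and 0.00390 in control.

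Values were turned into reads with that step. Ratios have exact conditional binomial (Clopper-Pearson) 95% intervals and shares exact binomial ones; PCR reads are not independent molecules, so both cover counting error only. Sums over a host gene used rows with 1 host name. Rows with several names (2082), no name (23) or a name turned into a date or a date's serial number (45) did not enter them. Because the identifiers are human, chromosome Y and genes marking X inactivation are not reported. This left out 1 of the 17261 rows, whose reads remain in the library totals.

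The named genes were the 4 hosts, their junctions with 10 or more reads, or listed in both libraries with a circBase identifier (others of theirs are given as well), up to 4 further genes with 20 or more reads from each class of the ion transport list, and the 3 nearest host genes. Members and lists were chosen with earlier results of these data known. Alternatives were median of ratios and TMM scaling (trimming 30% of ratios and 5% of abundances), 2 reads added, minimums of 5, 20 or no reads, a ratio of 1.5, and other choices of junctions for the sums. The call rule and intervals were tested on simulated data with Poisson counts. Large changes were planted there only in features well above the minimum of 10 reads, which most member junctions are not. How often the rule makes a false call near that minimum was not measured. Exon annotation and junction sequences were not used here, and a result that the rule names is not reported here. Python 3.11.15 with numpy 2.4.6, pandas 2.3.3, scipy 1.17.1 and matplotlib 3.10.9 was used.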

Additional observations from a re-analysis of the deposited data

How the results depend on the processing

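The 14 junction ratios stayed within their counting intervals under both other scalings and with 2 reads added. The scalings shift all log2 ratios by -0.08 and -0.01, small beside intervals of this width, so staying inside is a weak check. The 4 host gene ratios also stayed inside under these settings and with junctions listed in both libraries. The same held with circBase identifiers or rows of several host names, where these could be applied. Leaving out the most abundant junction put SLC8A1 at 1.21. With junctions listed in both only, the most abundant junction took 69.2% of CACNA2D1 reads in bone cancer pain and 81.8% in control, and 100% of KCNQ5 reads in bone cancer pain. KCNQ5 without its most abundant junction, and CACNA2D1 with circBase identifiers only, gave no ratio.

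Counts past 2-fold moved with the minimum and the size called, which change how many features are counted. With a minimum of 5 reads, 6 of 17 member junctions were higher and 2 lower, beside 1998 (22.4%) and 1958 (21.9%) of 8923 junctions. Of 28 ion transport genes 4 were then higher and 3 lower, beside 617 and 658 of 3830 host genes. With a minimum of 20, 1 of 4 member junctions was higher and 0 lower, beside 358 (11.6%) and 342 (11.1%) of 3079 junctions. Of 16 ion transport genes 3 were then higher and 0 lower, beside 211 and 216 of 2233 host genes. With no minimum, 12 of 32 member junctions were higher and 10 lower, beside 6057 (35.1%) and 5936 (34.4%) of 17260 junctions; of 39 ion transport genes 9 were higher and 9 lower, beside 1131 and 1247 of 4991 host genes. At a ratio of 1.5, 4 of 10 member junctions were higher and 2 lower, beside 1512 (27.9%) and 1526 (28.2%) of 5415 junctions, and of 23 ion transport genes 6 were higher and 6 lower, beside 712 and 762 of 3037 host genes. Median of ratios scaling shifts log2 ratios by -0.08, and gave 853 junctions higher and 998 lower.

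No paired analysis was possible because each group had 1 library. Intervals spanned several fold below 10 reads over both libraries, and also at low counts above 10. The TRPM7 junction hsa_circ_0007206, with 24 reads, had an interval of 0.43 to 2.57. The KCNQ5 sum, with 11 reads, had one of 0.98 to 45.1. The TRPM7 sum, with 198 reads, had a narrower one of 0.79 to 1.41.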

Other observations

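Positions of junction ends fell close together in a way that the counts do not show. In CACNA2D1, the left end of a junction at 81746360 and the right end of another at 81746489 bounded a stretch of 130 bp, both ends counted. The left end at 81714085 and the right end at 81714216 bounded a stretch of 132 bp. Each of these pairs therefore marks a stretch within the spans of more than 1 junction. Whether the circles keep that stretch after splicing was not tested, and such pairs were not counted over other host genes. In TRPM7, such stretches were 71 bp (50875286 to 50875356), 172 bp (50929619 to 50929790) and 199 bp (50940884 to 50941082) long. A further one was 52 bp long (50862301 to 50862352). Stretches of up to 300 bp were searched for. Whether these stretches are exons was not tested, since no human annotation was used here.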
